A study of Danio rerio with 6 samples.

Results

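The genes described here are 8 zebrafish immediate early genes outside the AP-1 family, namely *egr1*, *egr2a*, *egr2b*, *egr3*, *nr4a1*, *npas4a*, *ier2b* and *ier5*. They were chosen by name, with earlier results of these data known. Each name matched 1 of the 32520 genes in the deposited RPKM table (a read count divided by gene length and by library depth). All 8 passed the filter on low values (a mean over all libraries of 0.5 RPKM or more), which left 20435 genes to be tested. RNA came from whole larvae at 4 days post fertilization (dpf), in 3 pools of 60 *mgt* larvae and 3 pools of 60 WT larvae. The *mgt* (maggot) pools, labelled plod3 KO, are homozygous mutants for *plod3*, the collagen lysyl hydroxylase and glycosyltransferase. The study describes maggot as an ENU-induced missense allele, and the labels do not name the allele of the pools. The WT pools are of the AB strain. The labels name no drug or other agent for either group. The comparison asks which transcripts differ between mutant and wild-type larvae at this stage, here among the immediate early genes other than *fos* and *jun*.

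Immediate early genes are transcribed within minutes of a stimulus, without new protein synthesis. Growth factors act on them through serum response factor (SRF) and its Elk partners, and calcium entry in active neurons acts through CREB and MEF2. The Egr proteins are zinc finger transcription factors, Nr4a1 is an orphan nuclear receptor, Npas4 is in mammals a transcription factor largely restricted to neurons and switched on by their activity, and Ier2 and Ier5 are small nuclear proteins. In vertebrates *egr2* is also expressed in a fixed pattern, in the developing hindbrain and in myelinating Schwann cells, and in mice Egr1 acts in tendon formation.

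The libraries hold 38.3 to 50.25 reads per kilobase for each unit of RPKM, as found from the steps between RPKM values. The labels give batch 2 to every *mgt* pool and batch 1 to every WT pool, and genotype and batch therefore cannot be told apart. The mutated gene itself was higher in the mutant at the RNA level (log2 fold change 0.63), with *plod3* at 23.92, 24.28 and 24.37 RPKM in *mgt* and 16.76, 15.34 and 14.21 RPKM in WT. With each library's trend over gene span removed this log2 fold change was 0.22 and not called (limma adjusted p = 0.15). With median-of-ratios factors it was 0.34 and still called higher (limma adjusted p = 0.039). The call of *plod3* held under 17 of 18 alternative processings and was lost under 1. RPKM does not show a missense change, so this is no check of the labels. WT replicate 1 stood apart from WT replicates 2 and 3. The first principal component (83.5% of the variance) put it 0.53 of the distance from these to the *mgt* libraries, and the WT mean that the authors deposited is made of WT replicates 2 and 3 alone in each of the 32520 genes. Each WT library is therefore given on its own below. For WT replicate 3 the library name and the name of the table column in its label carry different numbers, and the column that the label names was used. In all genes tested the median log2 fold change of *mgt* over WT was 0.29, and division by median-of-ratios factors brought it to 0.03.

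Of the 8 genes, 5 rose in *mgt*, namely *npas4a*, *egr1*, *egr3*, *egr2b* and *ier2b*, and 0 fell. A call needed a limma p below 0.05, after Benjamini-Hochberg adjustment over all genes tested, together with a difference of 25% or more. By this rule 31.8% of all genes tested were higher and 15.6% were lower. At an unadjusted limma p below 0.05 the count was also 5 higher and 0 lower, but the share of all genes at that threshold is not given here. Without any 1 *mgt* library or WT replicate 2 or 3, 0 of the 8 were called, where 11.5% to 17.6% of all genes were called higher, and 6 were called without WT replicate 1. In those fits without a call the log2 fold change was 1.03 to 1.34 for *egr1* and 1.32 to 1.87 for *npas4a*, with adjusted p from limma of 0.068 to 0.078 and of 0.071 to 0.10. The median log2 fold change of the 8 genes was 0.68, against 0.29 over all genes. For 6 of the 8 genes the lowest *mgt* library was above the highest WT library, as it was for 41.7% of all genes tested, and for 0 of the 8 the highest *mgt* library was below the lowest WT library (21.6% of all genes tested). With 3 libraries against 3 the smallest p an exact two-sided permutation test can give is 0.1, and these 6 genes reached it.

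Among the Egr genes, *egr1* had the highest level. This gene (ENSDARG00000037421, chromosome 14, 21332522 to 21336385 of GRCz11) encodes the best known Egr factor, a fast reporter of growth factor signaling and neuronal activity. Its RPKM was 28.88, 26.74 and 30.40 in replicates 1, 2 and 3 of *mgt*, and 20.54, 9.23 and 7.75 in those of WT. All *mgt* libraries were above all WT libraries, and WT replicate 1 stood well above the other WT replicates. The means were 28.7 ± 1.84 RPKM in *mgt* and 12.5 ± 7.0 RPKM in WT (SD, n = 3 pools each), and the log2 fold change was 1.29, with an SE (standard error) of 0.34 and a limma adjusted p = 0.023. This value lay at the 91.9th percentile of all genes tested.

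The related *egr3* (ENSDARG00000089156, chromosome 8, 50727220 to 50733508), a factor needed for muscle spindles in mice, had 2.58, 2.79 and 2.60 RPKM in *mgt* and 2.16, 0.51 and 0.75 RPKM in WT. The groups did not overlap, but WT replicate 1 was much closer to *mgt* than to the other WT replicates. The log2 fold change of *egr3* was 1.08 (SE 0.35, limma adjusted p = 0.043), and with a pseudocount of 0.1 it was 1.39, against 1.32 for *egr1*. Mean RPKM in *mgt* was 2.33 times that in WT for *egr3* and 2.29 times for *egr1*. It had the highest adjusted p of the 5 calls, and without a filter on low values the same difference had an adjusted p of 0.059.

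The co-orthologs of *Egr2* differed in level and in change. For *egr2b* (*krox20*; ENSDARG00000042826, chromosome 12, 8483838 to 8504278) the RPKM was 3.08, 3.21 and 3.80 in *mgt* and 2.45, 1.53 and 1.55 in WT replicates 1, 2 and 3. The *mgt* libraries were again all higher, with a log2 fold change of 0.74 (SE 0.19 and limma adjusted p = 0.021). Its partner *egr2a* (ENSDARG00000044098, chromosome 17, 43663504 to 43677471) had only 0.64, 0.67 and 0.70 RPKM in *mgt* and 0.78, 0.32 and 0.51 RPKM in WT. Here the groups overlapped, since WT replicate 1 was the highest library of all. The log2 fold change of *egr2a* was 0.20 (95% confidence interval -0.22 to 0.61), which leaves room for a rise or a small fall. At 13.9 to 33.8 reads per kilobase it was also the least deeply covered of the 8 genes.

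The largest change was that of *npas4a* (ENSDARG00000055752, chromosome 14, 30636955 to 30642819), whose *mgt* pools had 11.56, 8.40 and 9.20 RPKM and whose WT pools had 6.23, 1.06 and 1.96 RPKM. No *mgt* library was as low as any WT library, and WT replicate 1 again held most of the WT spread. The means were 9.72 ± 1.64 RPKM in *mgt* and 3.08 ± 2.76 RPKM in WT (SD, n = 3 each), with a log2 fold change of 1.78 (SE 0.51 and limma adjusted p = 0.030) at the 97.9th percentile of all genes tested. In contrast, *nr4a1* (ENSDARG00000000796, chromosome 23, 32149269 to 32194397) had 4.29, 3.26 and 3.37 RPKM in *mgt* and 3.73, 4.72 and 4.01 RPKM in WT. The groups overlapped, and the log2 fold change was -0.17 (95% confidence interval -0.54 to 0.20). Of the 8 genes *nr4a1* alone had a negative value. It has the longest span, 45129 bases, and after each library's trend over gene span had been subtracted its log2 fold change was -0.66 and it was called lower (limma adjusted p = 0.045).

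The *ier* genes were more even between libraries. For *ier2b* (ENSDARG00000086881, chromosome 11, 31038409 to 31039533), a nuclear protein of early growth responses, the RPKM was 14.70, 12.47 and 12.89 in *mgt* and 10.36, 7.81 and 7.69 in WT replicates 1, 2 and 3. The libraries of the genotypes did not overlap, and the log2 fold change was 0.61 (SE 0.15, limma adjusted p = 0.018). The most abundant of the genes was *ier5* (ENSDARG00000009881, chromosome 22, 16497670 to 16499153), which in human cells acts with the heat shock factor HSF1. It had 55.84, 57.66 and 60.24 RPKM in *mgt* and 54.75, 49.38 and 50.68 RPKM in WT. Although the groups did not overlap, the difference was small, with a log2 fold change of 0.17 (95% confidence interval -0.04 to 0.37), and *ier5* was not called. No other row of the table overlaps the span of any of the 8 genes.

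**Figure D1:**
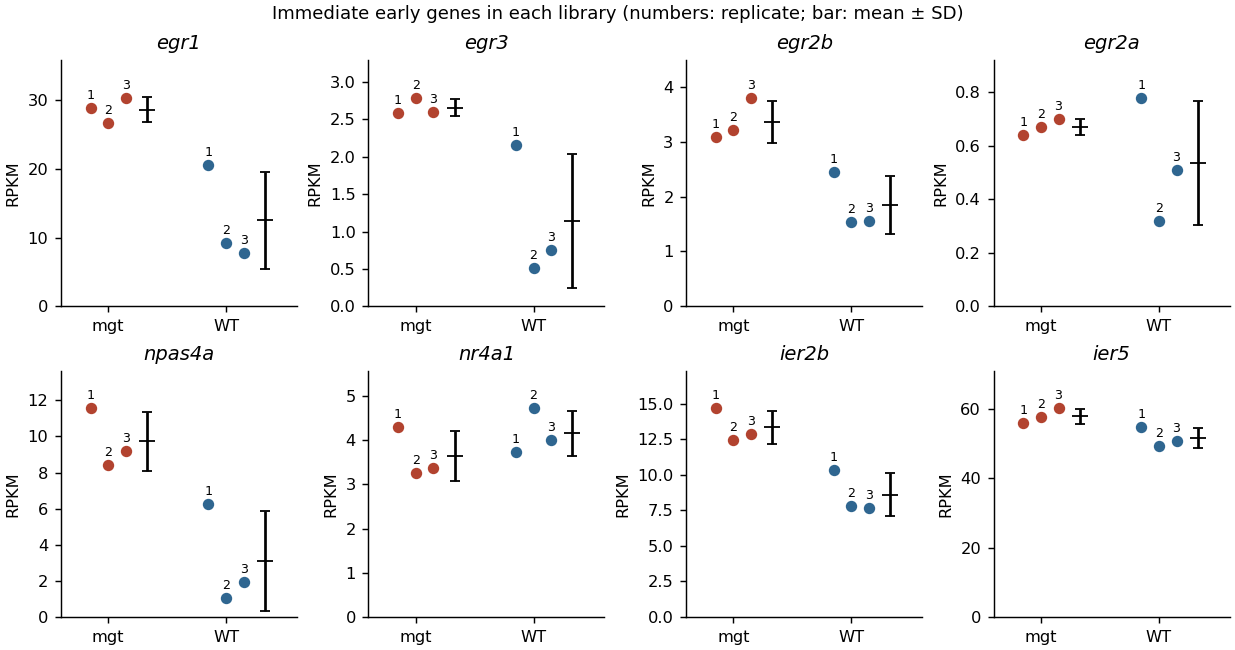
RPKM of the 8 genes (vertical axes, linear from 0) in each library of *mgt* (red) and WT (blue), with the replicate number over each point and the mean ± SD of 3 pools in black. WT replicate 1 lies between *mgt* and the other WT replicates for *egr1* (20.54 RPKM), *egr3* (2.16) and *npas4a* (6.23), and the groups overlap for *egr2a* and *nr4a1*.

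Because RPKM is scaled per length, the levels of the genes could also be ordered. The gene length used for the scaling is not given, and the order between genes depends on it. In *mgt* the order from high to low was *ier5* (mean 57.9 RPKM), *egr1* (28.7), *ier2b* (13.4), *npas4a* (9.72), *nr4a1* (3.64), *egr2b* (3.36), *egr3* (2.66) and *egr2a* (0.67). Among these neighbors only *nr4a1* and *egr2b* had overlapping libraries. In WT the order was *ier5* (51.6 RPKM), *egr1* (12.5), *ier2b* (8.62), *nr4a1* (4.15), *npas4a* (3.08), *egr2b* (1.84), *egr3* (1.14) and *egr2a* (0.54). Apart from *ier5* over *egr1* and *ier2b* over *nr4a1*, each pair of WT neighbors overlapped. The gene that changed place was thus *npas4a*, whose lowest *mgt* library (8.40 RPKM) was above the highest *mgt* library of *nr4a1* (4.29 RPKM), whereas in WT their ranges overlapped.

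The size of each difference depended on which WT library it was set against. Relative to WT replicates 2 and 3, the mean *mgt* RPKM was 6.44 times as high for *npas4a*, 4.22 times for *egr3*, 3.38 times for *egr1*, 2.18 times for *egr2b* and 1.72 times for *ier2b*. Relative to WT replicate 1 these ratios were 1.56, 1.23, 1.40, 1.37 and 1.29 for the same genes. WT replicate 1 was itself 4.13 times as high as the mean of the other WT replicates for *npas4a*, 3.43 times for *egr3* and 2.42 times for *egr1*, but 1.59 times for *egr2b* and 1.34 times for *ier2b*. On the log2 scale it lay 0.83 of the way from the other WT replicates to *mgt* for *egr3*, 0.75 for *npas4a*, 0.72 for *egr1*, 0.58 for *egr2b* and 0.53 for *ier2b*. WT replicate 1 was above both other WT replicates in 7 of the 8 genes and in 63.7% of all genes tested, and it lay between these and every *mgt* library in 6 of the 8 genes and in 32.7% of all genes tested.

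In the fit without WT replicate 1, 6 of the 8 genes were called higher, where 52.2% of all genes were, and *egr2a* joined the calls (log2 fold change 0.36, limma adjusted p = 0.037). With WT replicate 1 as the only WT library, assumed to vary as the *mgt* libraries do, 4 of the 8 were called higher, where 26.2% of all genes were. These were *egr1* (log2 fold change 0.47), *npas4a* (0.59), *egr2b* (0.38) and *ier2b* (0.35), and *egr3* was not called (0.25, limma adjusted p = 0.070). Leaving out any other single library left 0 of the 8 called, with 4 or 5 of them at an unadjusted p below 0.05 from limma. The share of all genes at that unadjusted threshold is not given here. In these fits the share of all genes called higher was 11.9%, 11.5% and 11.5% without *mgt* replicates 1, 2 and 3, and 17.6% and 16.1% without WT replicates 2 and 3. The directions of the 5 called genes did not change in any of these fits.

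Other scalings moved the calls less. With the same sum of RPKM in each library 6 of the 8 were called higher, where 43.3% of all genes were, since *ier5* was added (log2 fold change 0.40). After median-of-ratios scaling, which took the median of all genes near 0, the same 5 genes were called higher, where 23.8% of all genes were, and *ier5* had a log2 fold change of -0.14. With the trend over gene span removed these 5 were again called higher and *nr4a1* lower, where 20.4% of all genes were higher and 23.5% lower. A stricter threshold, a fold change of 2.38, left *npas4a* and *egr1*, that is 2 of the 8, where 8.26% of all genes were called higher.

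**Figure D2:**
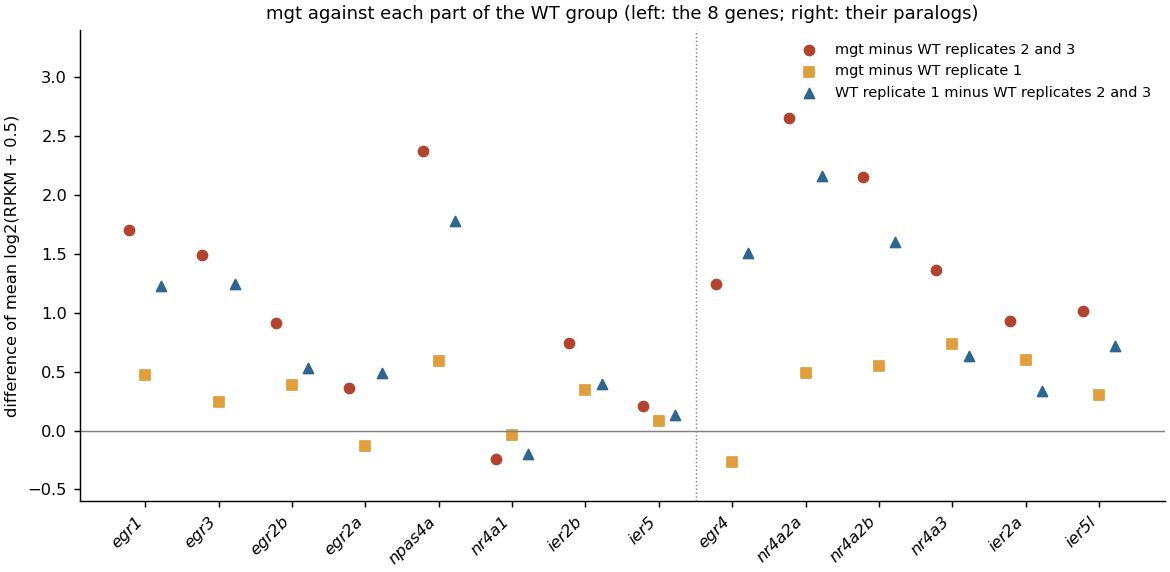
Differences of mean log2(RPKM + 0.5) for the 8 genes (left of the dotted line) and their tested paralogs (right), for *mgt* minus WT replicates 2 and 3 (red circles), *mgt* minus WT replicate 1 (orange squares) and WT replicate 1 minus WT replicates 2 and 3 (blue triangles). For *npas4a* these are 2.37, 0.59 and 1.78, and for *nr4a3* 1.37, 0.74 and 0.63.

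The summed RPKM of 16 neuronal marker genes was 913.0 to 949.1 in *mgt*, against 786.1 in WT replicate 1 and 262.4 and 328.5 in WT replicates 2 and 3, and none of the 16 was at 0. This sum was highest in *mgt*, next in WT replicate 1 and lowest in WT replicates 2 and 3, as were *npas4a*, *egr1* and *egr3*. WT replicate 1 lay between the other WT replicates and every *mgt* library in 6 of the 8 genes. The same held in 32.7% of all genes tested. The single markers varied, with every *mgt* library above every WT library for 9 of the 16 and log2 fold changes between -0.11 and 2.11. Of the 16 genes 8 were called higher and 0 lower, where 31.8% and 15.6% of all genes tested were. Without any 1 *mgt* library or WT replicate 3, 0 of the 16 were called higher, where 11.5% to 16.1% of all genes were. Without WT replicate 2 this was 1 of the 16 and 17.6%, and without WT replicate 1 it was 15 of the 16 and 52.2%. The median log2 difference of the 16 markers was 2.06 from WT replicates 2 and 3 and 0.34 from WT replicate 1. For *npas4a* these differences were 2.37 and 0.59, for *egr1* 1.70 and 0.47 and for *egr3* 1.49 and 0.25. The part of the neuronal content in the values of these genes was not tested, and in whole larvae a higher sum in *mgt* from more neurons and one from more of this RNA per neuron cannot be told apart.

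Other marker lists stood in various ways to the genes. The 7 markers of radial glia and astroglia summed to 864.1 to 929.7 RPKM in *mgt* and 655.1, 417.6 and 478.0 in WT replicates 1, 2 and 3. That sum had the same order as the neuronal sum, highest in *mgt*, next in WT replicate 1 and lowest in WT replicates 2 and 3. The median log2 difference of these markers was 1.47 from WT replicates 2 and 3 and 0.69 from WT replicate 1. The 10 markers of Schwann cells and oligodendrocytes summed to 105.2 to 110.1 RPKM in *mgt* and 108.4 to 118.2 in WT. Within that list 4 genes were called higher and 2 lower. The 7 tendon markers divided into 4 called higher and 3 called lower. Over all genes tested 31.8% were called higher and 15.6% lower. After median-of-ratios scaling the counts were 2 higher and 3 lower for the myelinating cells and 1 higher and 3 lower for tendon. With that scaling 23.8% of all genes were called higher and 4972 of 20370 lower. The 16 epidermal markers summed to 4802 to 5353 RPKM in *mgt* and 16196 to 17869 in WT, with 11 called lower, and no WT library stood apart in this list. The 11 photoreceptor markers summed to 2429 to 2525 RPKM in *mgt*, against 6030 in WT replicate 1 and 1486 and 1095 in WT replicates 2 and 3, an order unlike that of *npas4a*, *egr1* or *egr3*, in which no WT library was above *mgt*. How far these cell types bear on the 8 genes was not tested.

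**Figure D3:**
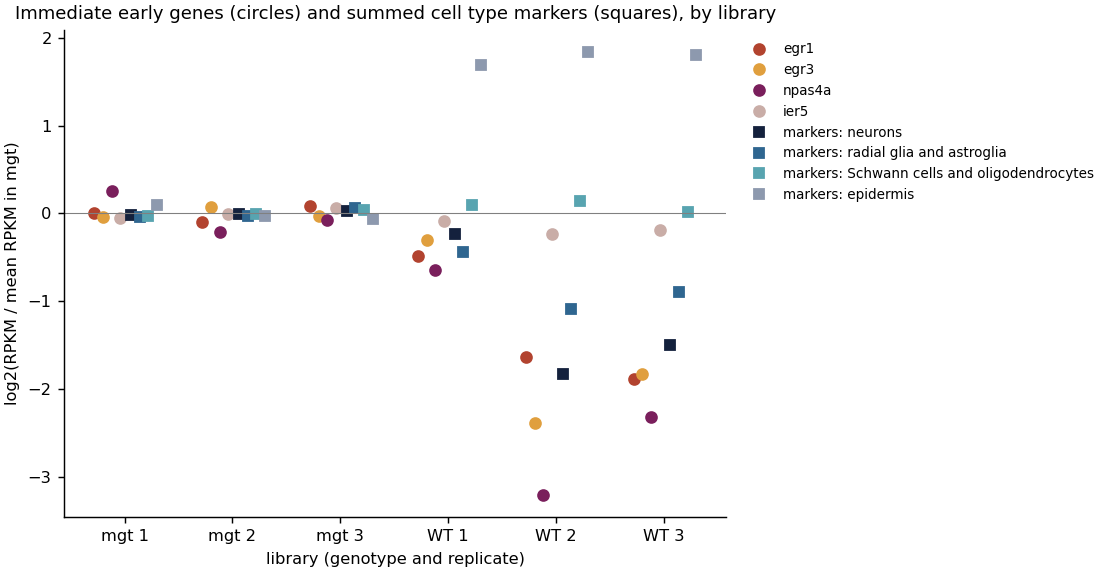
log2 of the RPKM over its mean in the *mgt* libraries, for 4 of the 8 genes (circles) and for the summed RPKM of 4 marker lists (squares), by library. In WT replicates 2 and 3 *npas4a*, *egr1*, *egr3* and the neuronal markers are all far below *mgt*, WT replicate 1 is nearer to *mgt*, and the epidermal markers are high in all WT libraries.

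The paralogs of the 8 genes ranged from genes with a wide WT spread to genes with a narrow one. Of 7 found by name, 6 could be tested and 5 rose (83.3%, against 31.8% of all genes tested). Their median log2 fold change was 0.99, against 0.29 over all genes. *nr4a2a* and *nr4a2b*, nuclear receptors needed for dopaminergic neurons, had the largest rises. The RPKM of *nr4a2a* was 8.02, 7.03 and 8.47 in *mgt* and 5.43, 0.68 and 0.98 in WT replicates 1, 2 and 3 (log2 fold change 1.93, SE 0.58). The RPKM of *nr4a2b* was 7.80, 6.68 and 6.83 in *mgt* and 4.70 in WT replicate 1, which was 3.88 times the mean of WT replicates 2 and 3 (log2 fold change 1.62, SE 0.43). Both thus shared the gap between WT replicate 1 and the other WT replicates seen for *npas4a*.

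Another nuclear receptor of that family, *nr4a3*, had 2.96, 3.53 and 3.69 RPKM in *mgt* and 1.83, 1.02 and 0.99 RPKM in WT, with a log2 fold change of 1.16 (SE 0.21 and limma adjusted p = 0.0074). For *ier2a* the RPKM was 26.23, 23.42 and 26.62 in *mgt* and 16.59, 12.89 and 13.19 in WT, with a log2 fold change of 0.82 (SE 0.13 and limma adjusted p = 0.0047). In *nr4a3* and *ier2a* WT replicate 1 was nearer to the other WT replicates than to *mgt*, and both stayed called higher under all 18 alternatives tried. With any 1 *mgt* library or WT replicate 2 or 3 left out, 2 of the 6 paralogs were called higher, where 11.5% to 17.6% of all genes were. *ier5l* rose as well (47.06, 47.63 and 48.97 RPKM in *mgt*, 38.77, 23.92 and 22.84 RPKM in WT, log2 fold change 0.78). The neuronal Egr gene *egr4* had 13.38, 10.88 and 12.02 RPKM in *mgt* and 14.56, 3.36 and 6.74 RPKM in WT. Its groups overlapped, with a log2 fold change of 0.74 (SE 0.46 and limma adjusted p = 0.21). *npas4l*, which in zebrafish acts in the specification of blood and endothelium, was at 0.26 RPKM or less and was not tested.

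The Nab proteins bind Egr factors and repress their activity, and mammalian *Nab2* is itself an Egr target. Only *nab1b* was called higher, at 3.58, 3.23 and 4.04 RPKM in *mgt* and 2.22, 1.16 and 1.61 RPKM in WT (log2 fold change 0.95, SE 0.20), and it was not called without *mgt* replicate 1 or 3. The log2 fold changes of *nab1a* (0.54, limma adjusted p = 0.16) and *nab2* (0.09, adjusted p = 0.57) did not pass.

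Further genes of the immediate early response were counted in lists drawn up from gene names, with earlier results of these data known. The study had already reported *fosaa*, *fosab* and *jund*, which are named in the AP-1 list, as upregulated in the mutant. Of 10 AP-1 genes tested 9 rose and 0 fell, where 31.8% of all genes tested were called higher and 15.6% lower. The median log2 fold change of the AP-1 genes was 1.84, against 0.29 over all genes. The largest rises among the AP-1 genes were those of *junba* (2.61), the stress-induced *atf3* (2.43), *fosl1a* (2.29) and *fosl2* (2.27). Relative to WT replicate 1 alone these genes were still higher by 1.84, 2.22, 2.11 and 1.51 on the log2 scale. The median difference of the 10 AP-1 genes from WT replicate 1 was 1.23. With 1 library left out, 7 to 10 AP-1 genes were called higher, where 11.5% to 52.2% of all genes were. Of 53 other early response genes 37 rose (69.8%) and 2 fell (3.77%), with a median of 0.62. After median-of-ratios scaling 27 of them were called higher, where 23.8% of all genes were, and 6 were called lower. Over all genes 4972 of 20370 were then called lower. The matricellular gene *ccn2a*, a target of SRF and Yap signaling, was at 110.38, 120.60 and 122.69 RPKM in *mgt* and 27.67, 27.37 and 24.71 RPKM in WT, a log2 fold change of 2.13 (SE 0.092). *mcl1b*, a survival factor of the Bcl2 family (1.89), *ccn1l2* (1.88) and the kinase gene *sik1*, a CREB target in mammals (1.73), rose next, and the Krüppel-like factor genes *klf6b* (-1.04) and *klf2a* (-0.47) fell. The call of *klf2a* was lost with the same sum per library (-0.25, limma adjusted p = 0.16) and without any 1 *mgt* library (adjusted p = 0.056 to 0.064). In these early response genes the WT libraries were close for *ccn2a*, *mcl1b* and *klf6b*, unlike in *npas4a* or *egr1*.

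Among genes that act upstream of the immediate early genes, 26 of 36 tested were called higher (72.2%, against 31.8% of all genes tested). Of these 36 genes 0 were called lower (15.6% of all genes), and their median log2 fold change was 0.71, against 0.29 over all genes. The highest were *crtc1b* (1.58) and *crtc1a* (1.26), which encode coactivators of CREB, *crebbpb* (1.43), which encodes a CREB-binding acetyltransferase, and *mef2d* (1.37). The RPKM of *crtc1b* was 2.79, 2.75 and 3.07 in *mgt* and 1.30, 0.33 and 0.46 in WT replicates 1, 2 and 3, so that here too WT replicate 1 was the WT library nearest to *mgt*. The genes of SRF (*srfa*, 0.89, and *srfb*, 0.70) and *elk1* (0.80), given after their values were seen because they act directly upstream of *egr1*, were called higher too. Of these only *srfb* had WT libraries that were close together (9.94, 8.19 and 9.75 RPKM in *mgt*, 5.38, 5.22 and 5.92 RPKM in WT). *srfa*, *srfb* and *elk1* were picked from the list, and its genes that were not called are not named. Whether the calls of *srfa*, *srfb* and *elk1* held under the alternatives is not given here. The count for this list depended on the libraries and the scaling. Without any 1 *mgt* library 7 to 10 were called higher, where 11.5% to 11.9% of all genes were. After the trend over gene span had been subtracted 12 were called higher and 2 lower, where 20.4% and 23.5% of all genes were. The median log2 fold change of the list was then 0.20.

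Of 31 tested genes known as Egr targets in mammals, 15 were called higher (48.4%, against 31.8% of all genes tested) and 4 lower (12.9%, against 15.6%), with a median log2 fold change of 0.49, against 0.29 over all genes. The highest were *ndrg1b* (2.18), whose mammalian counterpart is linked to Schwann cells and stress, the synapsin genes *syn2b* (1.84) and *syn1* (1.83), which are expressed in neurons, and *ndrg1a* (0.93). The RPKM of *syn2b* was 17.14, 16.42 and 18.31 in *mgt* and 9.97, 2.71 and 3.13 in WT replicates 1, 2 and 3, with WT replicate 1 again the WT library nearest to *mgt*. *syn1* is also among the neuronal markers, *mbpa* (myelin basic protein) among those of myelinating cells, and *scxb* among those of tendon. The lowest were *mbpa* (-1.07), whose mammalian counterpart is an Egr2 target in Schwann cells, and *scxb* (-0.77), the gene of a tendon transcription factor. The RPKM of *mbpa* was 14.47, 12.83 and 14.69 in *mgt* and 29.51, 33.17 and 27.10 in WT, and *egr2b* was higher in *mgt*. Whether *egr2b* acts on *mbpa* in these larvae was not tested. After median-of-ratios scaling 6 of the 31 targets were called higher and 6 lower. With that scaling 23.8% of all genes were called higher and 4972 of 20370 lower. Without any 1 *mgt* library 2 or 3 of the targets were called higher, where 11.5% to 11.9% of all genes were.

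**Figure D4:**
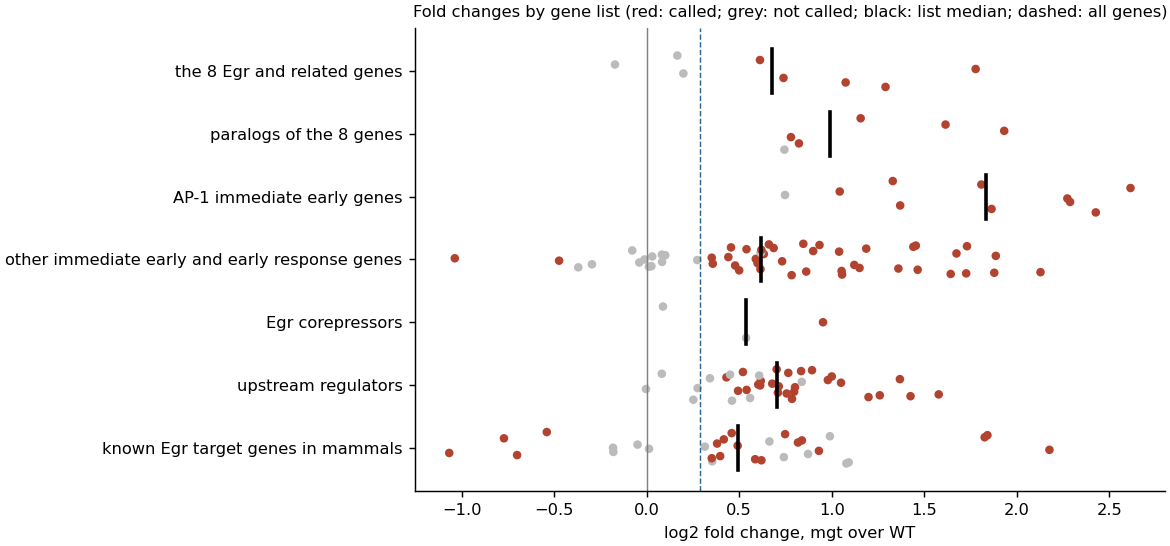
log2 fold change of *mgt* over WT (horizontal axis) for each tested gene of the 8 genes and of 6 gene lists (rows), red where called and grey where not, with the list median in black and the median of all genes tested (0.29) dashed. The AP-1 genes have the highest median (1.84), the 8 genes lie at 0.68, and the Egr targets spread to both sides of 0.

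The likeness of other genes to *egr1* over the 6 libraries was measured as the mean absolute difference of log2(RPKM + 0.5) after each profile was centered, over 15716 candidate genes. The nearest were *arhgap35b* (0.040), *cicb* (0.043), *gnb1a* (0.043), *magi1b* (0.045) and *rapgef2* (0.049). Among the 8 genes *egr1* and *egr3* were nearest to each other (0.18), *npas4a* was nearest to *egr1* (0.29), *egr2b* to *ier2b* (0.13), *egr2a* to *ier5* (0.093) and *nr4a1* to *ier5* (0.22). The measure is small for any pair of genes that vary little, so a small value need not mean a shared pattern. *nr4a1* and *ier5* had log2 fold changes of opposite sign (-0.17 and 0.17). For *egr2a* WT replicate 1 was the highest library, whereas for *ier5* it was below every *mgt* library. The likeness values describe 6 libraries in 2 genotypes and carry no test.

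**Figure D5:**
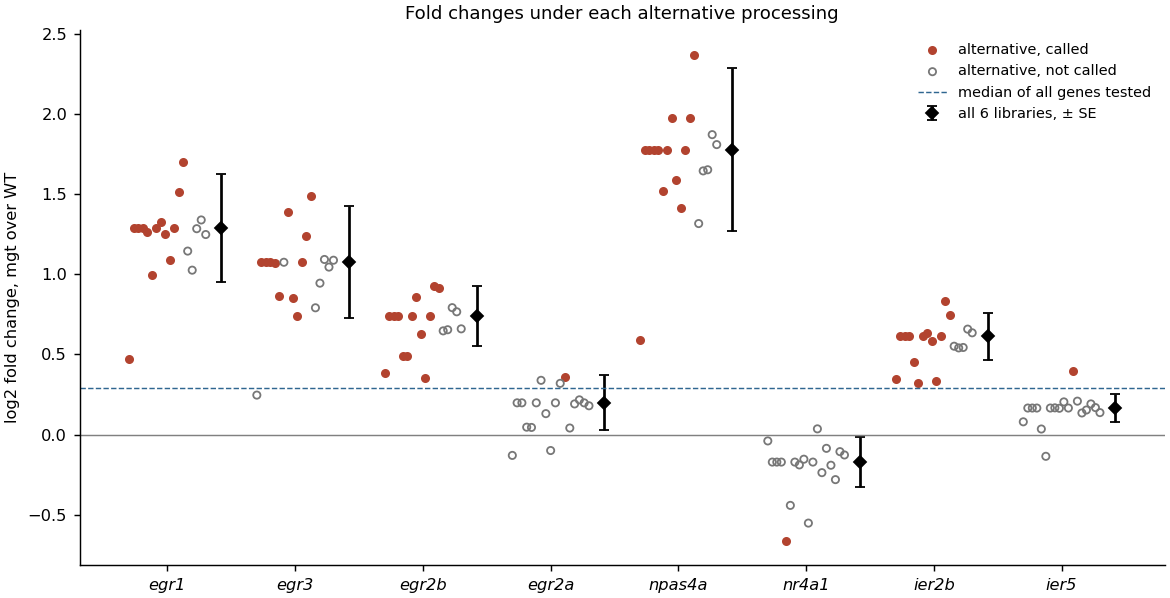
log2 fold change of *mgt* over WT for the 8 genes with all 6 libraries (black diamonds, ± standard error) and under each alternative processing (red where called, open where not), with the median of all genes tested dashed at 0.29. *npas4a* runs from 0.59 to 2.37 and *egr1* from 0.47 to 1.70, all above 0, whereas the values of *egr2a*, *ier5* and *nr4a1* fall on both sides of 0.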

How the data were processed

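Total RNA of whole larvae was extracted with TRIzol and depleted of ribosomal RNA with either of a pair of kits, not assigned to pools in the labels. Per the labels, the submitters' processing notes name FastQC, cutadapt (version 5.2), STAR, HTSeq and GRCz11. The authors deposited RPKM per gene, rounded to 2 decimals, and the gene length behind it is not given in the sources used here. Their columns of means, SDs and ratios were not used, save the means to see which libraries they cover. Spans are those of the table.

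Genes averaging 0.5 RPKM or more (20435) were fitted as log2(RPKM + 0.5) with lmFit and eBayes (trend) of limma 3.58.1 in R 4.3.3, and p-values were adjusted by Benjamini-Hochberg over all of them. This is not the count model of the study because the table holds no counts. Fold changes on this scale understate those of low genes, such as *egr2a*. Calls needed an adjusted p below 0.05 and a 25% difference. Library depth (38.3 to 50.25, in units of 1e+06 reads) was read from the steps between RPKM values in short genes, and error bounds cover the spread of 3 pools only. The labels and a legend of the study call the pools biological replicates, and another legend calls them technical, so p-values measure the spread between these pools. The script was tested on simulated data, in which no WT library stood apart from the others. Of 100 genes changed there by 1 on the log2 scale 52% were called, and of 100 changed by 2, 82%. Of 144 calls 10 were false. In the larval data 6494 genes were called higher and 3194 lower, far more than in the simulation, so these shares need not hold there.

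The 8 genes and all lists were chosen with earlier results of these data known. Named beyond the 8 genes were all their paralogs, the Egr corepressors, *plod3*, in each other list up to 4 called genes with the highest and up to 2 with the lowest log2 fold change at a mean RPKM of at least 1, and the 5 genes nearest to *egr1*. Outside this rule *srfa*, *srfb* and *elk1* were also named, after their values were seen. Of 11 marker lists, 6 are given in the text, to be read against 31.8% of all genes tested called higher and 15.6% lower. The other 5 gave, as genes called higher and lower, 0 and 3 of 16 for skeletal muscle, 4 and 0 of 8 for heart, 7 and 0 of 10 for endothelium, 7 and 0 of 11 for macrophages and neutrophils and 3 and 6 of 11 for liver. The alternatives were other pseudocounts (0.1 and 1), filters, scalings and variance settings, a replicate block, WT replicate 1 alone and leaving out each library.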

Additional observations from a re-analysis of the deposited data

How the results depend on the processing

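The 5 calls (*egr1*, *egr2b*, *egr3*, *npas4a* and *ier2b*) kept their direction under all 18 alternatives, and *egr1*, *egr2b*, *npas4a* and *ier2b* kept the call under 13 of these and *egr3* under 11. Leaving out 1 library gave 0 to 6 of the 8 genes called higher, with 6 only without WT replicate 1. At a fold change of at least 2.38, 2 were called higher, *egr1* and *npas4a*, where 8.26% of all genes were. With the trend over gene span removed, 1 (*nr4a1*) was called lower. Over all genes, 6494 were called higher and 3194 lower. These counts were 4174 and 4808 with the span trend removed and 1687 and 487 at the stricter fold. They ran between 2343 and 10654 higher and between 1689 and 3698 lower with 1 library left out. The count of lower genes was 4972 with median-of-ratios factors, 5338 after quantile normalization and 1903 with the same sum per library. The share of calls that were higher was 67.0%, against 82.3%, 49.4%, 46.7% and 46.5% with the same sum, median-of-ratios factors, quantile normalization and the span trend removed, and the median of all genes was 0.49, 0.03, -0.002 and 0.005 under these. The cause was not tested. Values that changed sign were those of *egr2a* (-0.13 against WT replicate 1 alone and -0.10 after quantile normalization), *egr4* (-0.26) and *nab1a* (-0.12), both against WT replicate 1 alone, *ier5* (-0.14 with median-of-ratios factors), *nr4a1* (0.036 with the same sum) and *nab2* (-0.19, -0.15 and -0.28 with the span trend removed, median-of-ratios factors and quantile normalization). Libraries with the same replicate number did not deviate together (correlations -0.03, 0.03 and 0.03), and with a replicate block 5 of the 8 genes were called higher and 0 lower, with 5588 higher and 2533 lower over all genes. With WT replicate 1 alone, its spread is assumed to be that of *mgt*. Genotype and batch cannot be told apart, and *egr2a*, the least deeply covered of the 8 genes at 13.9 to 33.8 reads per kilobase, could not be tested with the filter at a mean RPKM of 1.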
